A study of Mus musculus with 10 samples.

Results

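Left atrial RNA was examined for 7 sodium channel genes, namely the alpha subunit genes Scn10a, Scn4a, Scn3a and Scn7a and the beta subunit genes Scn2b, Scn3b and Scn4b. They were taken by symbol, 7 of 48397 gene rows, and other genes of the family were not analysed here. The TAC group held 5 libraries from wild-type mice with tissue taken 2 weeks after transverse aortic constriction, an operation that narrows the aortic arch and makes the heart pump against a higher pressure. The Sham group held 5 libraries from wild-type mice 2 weeks after the mock operation. Surgery was done at 2 months of age, and the series' design text adds that the mice were males of the C57BL/6J strain. The design text names the left appendage as the tissue and the sample labels name the left atrium. In what follows n counts libraries. Nothing in the labels ties each library to its own animal, so p-values measure the spread between libraries, part of which may be technical.

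Voltage-gated sodium channels carry the inward current that starts the action potential in nerve and muscle and sets the speed at which it spreads through the atrium. An alpha subunit forms the pore. Beta subunits are small membrane proteins with one immunoglobulin-like domain outside the cell, which attach to the alpha subunit and alter its gating and its number at the cell surface. The title of the series names the factor ETV1 and a program of rapid conduction, so these genes bear on the question of how conduction genes differ in the pressure-loaded atrium.

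Total counts over genes ran from 29493200 to 41358617 in TAC libraries and from 17117306 to 43956384 in Sham libraries. Levels below are CPM, counts scaled to a common library total, after TMM scaling, which corrects library size for composition. All 7 genes passed the filter on low counts, among 15175 tested genes. By edgeR's quasi-likelihood test at an adjusted p under 0.05, 1 of the 7 was higher in TAC (Scn2b) and 4 were lower (Scn4b, Scn10a, Scn4a and Scn7a). Scn3a and Scn3b did not pass. Over all tested genes 56.8% were called, 28.9% higher (4383 genes) and 27.9% lower (4233 genes), so a call by itself did not set a gene apart in these libraries. The CPM of the groups did not overlap for 4 of the 7 genes, against 41.7% of all tested genes. The median log2 fold change (TAC over Sham) of the 7 was -0.69, and that of all tested genes was 0.01. When libraries were scaled by size alone, the median of all tested genes was 0.37, with 7741 genes higher and 1929 lower. Under it the same 4 sodium channel genes stayed lower, and Scn3a and Scn3b joined Scn2b as higher, so that 3 were higher.

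**Figure D1:**
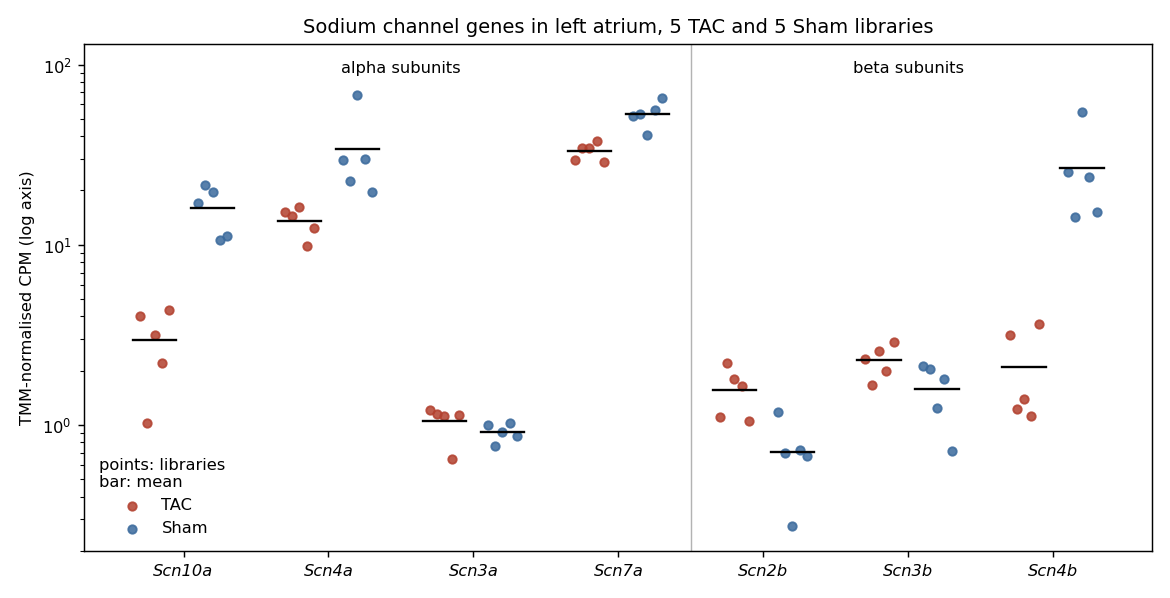
TMM-normalised CPM on a log axis for the 4 alpha and 3 beta subunit genes, with 1 point per library (replicates 1 to 5 from left to right), TAC left of Sham, and a bar at the mean. The 5 TAC libraries lie below the 5 Sham libraries for Scn10a, Scn4a, Scn7a and Scn4b, and the groups overlap for Scn3a, Scn2b and Scn3b.

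Among the alpha subunit genes, Scn10a was lowered most. It encodes Nav1.8, a channel known for its resistance to tetrodotoxin in pain-sensing neurons and also found in the heart, and it lies on chromosome 9 at 119608456 to 119719322 of build GRCm38, minus strand. TAC replicates 1 to 5 had 4.05, 1.02, 3.14, 2.20 and 4.33 CPM, against 17.1, 21.5, 19.6, 10.7 and 11.1 CPM in Sham replicates 1 to 5. The highest TAC library was still below the lowest Sham library. Means were 2.95 ± 1.36 CPM in TAC and 16.0 ± 4.92 CPM in Sham (SD, n = 5 each), a log2 fold change of -2.43 (SE 0.36, edgeR adjusted p = 0.00017). It ranked 163 of 15175 tested genes from the most negative fold change.

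Scn4a encodes Nav1.4, the main sodium channel of adult skeletal muscle, and lies on chromosome 11 at 106318592 to 106353288. Its levels were 15.2, 14.35, 16.25, 9.90 and 12.4 CPM in TAC replicates 1 to 5 and 29.6, 22.5, 67.7, 30 and 19.7 CPM in Sham replicates 1 to 5. All TAC libraries were below all Sham libraries, and Sham replicate 3 stood far above the other Sham libraries. Its log2 fold change was -1.32 (SE 0.31, edgeR adjusted p = 0.0037). Without Sham replicate 3 it was -0.90 (edgeR adjusted p = 0.0012), which keeps the call at a smaller size.

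Scn7a encodes NaX, an atypical family member known as a sensor of sodium concentration in glia and other cells, and lies on chromosome 2 at 66673425 to 66784914. It was the most abundant of the 7 genes by CPM in every TAC library and in most Sham libraries. TAC replicates 1 to 5 had 29.65, 34.2, 34.5, 37.7 and 28.9 CPM, and Sham replicates 1 to 5 had 52.0, 53.5, 40.6, 55.7 and 65.0 CPM. The groups did not overlap, but the lowest Sham library was close to the highest TAC library. The log2 fold change was -0.69 (SE 0.12, edgeR adjusted p = 0.00044), and -0.33 with scaling by library size alone (edgeR adjusted p = 0.031).

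Scn3a, which encodes Nav1.3, a channel best known from the developing brain, lies on chromosome 2 at 65457118 to 65567627. It was at the edge of detection, with 22 to 52 counts per TAC library and 12 to 40 per Sham library. TAC replicates 1 to 5 had 1.203, 1.146, 1.125, 0.646 and 1.135 CPM, and Sham replicates 1 to 5 had 0.993, 0.767, 0.912, 1.03 and 0.863 CPM. TAC replicate 4 was the lowest of all 10 libraries, and the other TAC libraries were above every Sham library. A log2 fold change of 0.20 (SE 0.22) did not pass (edgeR adjusted p = 0.47), and a change no larger than its SE cannot be told from no change. It passed with scaling by library size alone (0.56, edgeR adjusted p = 0.0497).

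The beta subunit genes moved apart. Scn4b was lower in TAC by more than any other of the 7 genes, Scn2b was higher, and Scn3b did not pass the test. Scn4b encodes a beta subunit that is bound to the alpha subunit by a disulfide bond and is known for promoting resurgent sodium current in neurons. It lies on chromosome 9 at 45138395 to 45154152, plus strand. TAC replicates 1 to 5 had 3.15, 1.22, 1.39, 1.12 and 3.64 CPM, and Sham replicates 1 to 5 had 25.4, 14.3, 54.4, 23.8 and 15.2 CPM. The groups were separated by a wide gap, and Sham replicate 3 was again the highest. Means were 2.10 ± 1.20 CPM in TAC and 26.6 ± 16.3 CPM in Sham (SD, n = 5 each), 12.65-fold lower in TAC by the ratio of means. The log2 fold change was -3.65 (SE 0.48, edgeR adjusted p = 9.0e-05), the 48th most negative of 15175 tested genes, and -3.22 without Sham replicate 3.

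Scn2b encodes the other disulfide-bound beta subunit of the set and is the upstream neighbour of Scn4b. It lies at 45117782 to 45130070 on the same strand of chromosome 9, and 8324 bases separate the annotated end of Scn2b from the start of Scn4b. Counts were low, from 40 to 89 per TAC library and from 9 to 28 per Sham library. TAC replicates 1 to 5 had 1.11, 2.22, 1.81, 1.64 and 1.055 CPM, against 1.18, 0.703, 0.2735, 0.722 and 0.675 CPM in Sham replicates 1 to 5. Sham replicate 1 overlapped the TAC range and the other Sham libraries lay below it. The log2 fold change was 1.18 (SE 0.35, edgeR adjusted p = 0.013), so the 2 neighbouring genes differed from Sham in opposite directions.

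Scn3b encodes a beta subunit held by non-covalent contacts and lies elsewhere on chromosome 9, at 40269217 to 40291618. TAC replicates 1 to 5 had 2.31, 1.67, 2.58, 2.00 and 2.90 CPM, and Sham replicates 1 to 5 had 2.11, 2.045, 1.25, 1.80 and 0.713 CPM. The ranges overlapped. A log2 fold change of 0.55 (SE 0.28) did not pass (edgeR adjusted p = 0.12). It passed with scaling by library size alone (0.90, edgeR adjusted p = 0.022) and without Sham replicates 1 and 2, the shallowest libraries (0.85, edgeR adjusted p = 0.048).

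Sequence just before the annotated starts was compared because Scn2b and Scn4b are neighbours with opposite changes. RefSeq windows of build GRCm38.p6, from 250 bases before to 50 after a start, were matched for 5 of the 7 genes (Scn10a, Scn4a, Scn7a, Scn2b and Scn4b). The annotations differ on where these genes start. Only 21 of the 300 bases of the Scn4b window precede its GENCODE start, and the Scn10a and Scn4a windows lie wholly inside the GENCODE gene, so for these 3 genes the composition and motif values describe mostly or wholly sequence within the annotated gene. The Scn4b window (chr9:45138374-45138673) was 66.3% G and C with 26 CG dinucleotides, and the Scn2b window (chr9:45117626-45117925) was 38.3% with 2. Over all 32851 windows the medians were 52.7% and 7, so the 2 neighbours stood on opposite sides of both. The windows of Scn10a, Scn7a and Scn4a held 11, 3 and 4 CG dinucleotides at 51.7%, 54.0% and 63.0% G and C. For Scn2b and Scn7a, the bases that precede both the RefSeq and the GENCODE start are shown 5′ to 3′ on the gene's strand, with CG dinucleotides in capitals (chr9:45117626-45117781, plus strand, and chr2:66784915-66785160, minus strand). The Scn2b stretch holds none and the Scn7a stretch holds 3.
Scn2b: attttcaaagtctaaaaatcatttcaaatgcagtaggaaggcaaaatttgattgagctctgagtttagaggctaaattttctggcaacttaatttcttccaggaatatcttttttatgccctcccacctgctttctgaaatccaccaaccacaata
Scn7a: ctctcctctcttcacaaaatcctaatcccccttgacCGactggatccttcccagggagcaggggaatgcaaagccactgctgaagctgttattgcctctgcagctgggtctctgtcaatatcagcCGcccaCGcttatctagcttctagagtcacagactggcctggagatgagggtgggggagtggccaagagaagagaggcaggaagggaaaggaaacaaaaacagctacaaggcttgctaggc
The search covered CCGGAA, a form of the site that ETS factors such as ETV1 bind, the T-box core GGTGTGA and TATAAA. None of them occurred on either strand in any of the 5 windows. Of all 32851 windows 14.9%, 3.98% and 13.62% hold these letters, and the lack of a match says only that these letters are not in these windows. Other forms of the ETS site were not searched, and the shorter letters GGAA can be read in both printed stretches.

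The make-up of the beta subunit RNA differed between the groups. Counts were divided by exonic length, and each of the 3 genes was taken as a share of their sum, a measure that no scaling between libraries can alter. Scn4b held 48.8%, 23.9%, 24.5%, 23.8% and 49.1% in TAC replicates 1 to 5, against 88.8%, 84.5%, 97.4%, 90.8% and 91.7% in Sham replicates 1 to 5. The highest TAC share was far below the lowest Sham share. Its mean share was 34.0% ± 13.6 in TAC and 90.7% ± 4.69 in Sham (SD, n = 5 each), a difference of -56.65 percentage points (exact two-sided permutation p = 0.0079, the smallest that 5 against 5 libraries can give). Scn3b held 35.7% ± 4.64 in TAC and 6.00% ± 3.38 in Sham, and Scn2b held 30.3% ± 13.2 in TAC and 3.34% ± 1.70 in Sham (SD, n = 5 each). The summed level of the 3 genes was 1.18 ± 0.218 CPM per kilobase in TAC and 5.78 ± 3.22 CPM per kilobase in Sham (SD, n = 5 each, exact two-sided permutation p = 0.0079). The higher Scn2b did not bring this sum to the Sham level. Shares of a common sum cannot move independently, and Scn4b made up most of the sum in Sham. The shares of Scn3b and Scn2b and the summed level thus largely follow from the lower Scn4b and are not separate results. Taken alone, Scn2b was called higher and Scn3b was not (edgeR adjusted p = 0.013 and 0.12).

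**Figure D2:**
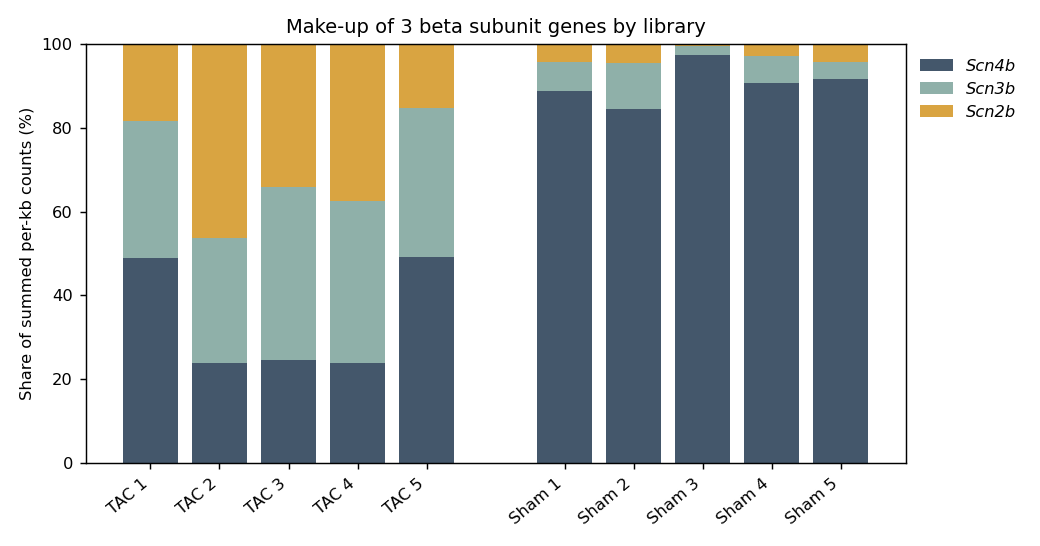
Share of each beta subunit gene in the summed per-kilobase counts of Scn2b, Scn3b and Scn4b (percent, stacked to 100), with 1 bar per library and the 5 TAC libraries left of the 5 Sham libraries. Scn4b takes 23.8% to 49.1% in TAC libraries and 84.5% to 97.4% in Sham libraries.

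Ratios between genes within a library are also free of scaling between libraries, and all 21 pairs of the 7 genes were tested by exact two-sided permutation, a family added after the data were seen. Of these, 17 differed between TAC and Sham at a Benjamini-Hochberg adjusted p under 0.05 over the 21 pairs. The 21 ratios reuse the same 7 genes and are not independent. Ratios of other gene pairs were not tested, so the count has no background to stand beside. For each Scn2b count there were 2.83, 0.551, 0.771, 0.679 and 3.45 Scn4b counts in TAC replicates 1 to 5, against 21.5, 20.4, 198.9, 33.0 and 22.4 in Sham replicates 1 to 5. The smallest Sham ratio was several times the largest TAC ratio. The log2 ratio of Scn2b to Scn4b was higher by 4.84 in TAC (exact permutation p = 0.0079, adjusted p = 0.012). Scn4b was also lowered more than Scn4a, whose log2 ratio to Scn4b was 2.85 ± 0.796 in TAC and 0.38 ± 0.162 in Sham (SD, n = 5 each, exact permutation p = 0.0079, adjusted p = 0.012). In Sham libraries those 2 genes kept a narrow ratio even in replicate 3, where both were high.

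The fall of Scn10a and that of Scn4b could not be separated. Their log2 ratio was 0.50 ± 0.574 in TAC and -0.61 ± 0.791 in Sham, a difference of 1.11 that missed the threshold (SD, n = 5 each, exact permutation p = 0.056, adjusted p = 0.065). The other pairs that did not pass were Scn4a with Scn7a (difference -0.50, exact permutation p = 0.32, adjusted p = 0.32), Scn3a with Scn3b (-0.44, exact permutation p = 0.24, adjusted p = 0.25) and Scn2b with Scn3b (0.59, exact permutation p = 0.24, adjusted p = 0.25). Missing the threshold does not show that these pairs changed alike.

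**Figure D3:**
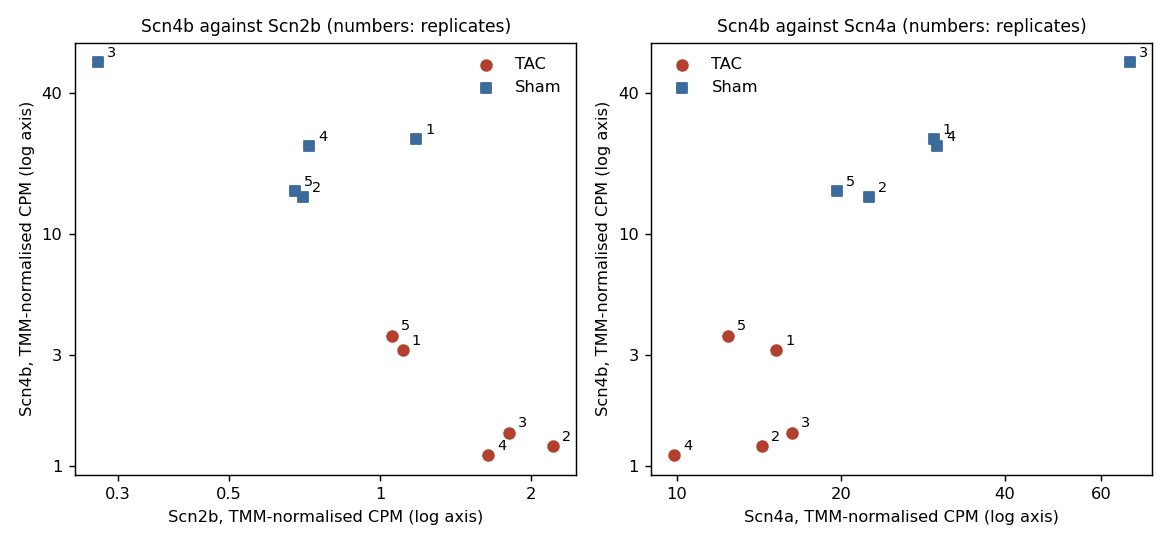
TMM-normalised CPM of Scn4b against Scn2b (left panel) and against Scn4a (right panel) on log axes, with 1 point per library labelled by its replicate number. TAC libraries have less Scn4b than any Sham library in both panels, and Sham replicate 3 is highest for Scn4b and Scn4a and lowest for Scn2b.

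Levels per kilobase of exon allow the genes to be ordered. In TAC the order of mean levels was Scn7a (4.50 CPM per kilobase), Scn4a (1.94), Scn4b (0.422), Scn3b (0.420), Scn10a (0.370), Scn2b (0.337) and Scn3a (0.0844). Scn7a, Scn4a and Scn3a were separated from their neighbours in that order, and the ranges of the 4 genes between Scn4a and Scn3a overlapped. In Sham the order was Scn7a (7.27), Scn4b (5.34), Scn4a (4.81), Scn10a (2.01), Scn3b (0.290), Scn2b (0.153) and Scn3a (0.0733). Scn7a, Scn4b and Scn4a overlapped from one to the next, and Scn10a was apart from Scn4a above it and from Scn3b below it. The lowest 3 also overlapped from one to the next. Scn4b, second of 7 by mean in Sham, was in TAC level with Scn3b, which it exceeded in 2 of 5 TAC libraries.

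**Figure D4:**
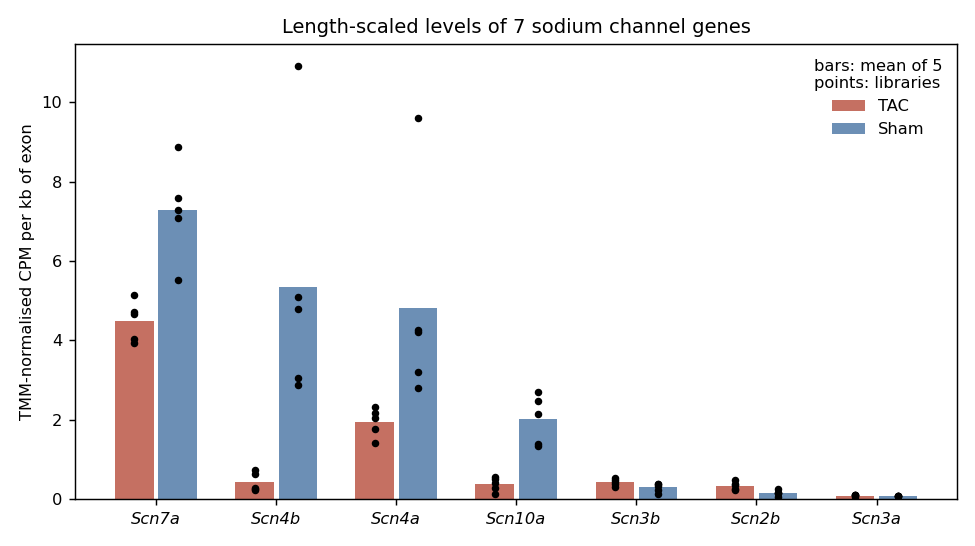
Mean TMM-normalised CPM per kilobase of exon (bars) with the 5 libraries of each group (points), TAC left of Sham, genes in the order of their Sham means. Scn4b is at 0.422 in TAC and 5.34 in Sham, and Scn7a has the highest mean in both groups.

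By the profile over the 10 libraries, the nearest genes were found as those with the smallest root mean square difference of mean-centred log2 CPM among 11585 genes whose log2 CPM averaged 1 or more. They are given as a description, and the large shift between the groups shapes every such profile. Nearest to Scn4b were Pla2g5 (difference 0.43 log2 units) and Opcml (0.50). Nearest to Scn10a were Mmp9 (0.35) and Slc36a2 (0.36), nearest to Scn4a were Gstm6 (0.20) and Slc26a6 (0.24), and nearest to Scn7a were Rsbn1 (0.09) and Med13 (0.10). Scn2b was nearest to Mmp16 (0.24) and Lfng (0.32), Scn3b to Gbp7 (0.24) and Eva1a (0.25), and Scn3a to Spata24 (0.13) and Hdhd3 (0.14). Between members the profiles of Scn3a and Scn3b were the closest (0.51) and those of Scn2b and Scn4b the furthest apart (2.63).

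Sodium channels work in a complex with cytosolic partners, and 23 genes of such partners were listed, of which 22 were tested. Of these 6 were higher and 11 lower in TAC (median log2 fold change -0.28). Over all tested genes 28.9% were called higher and 27.9% lower. All 4 genes of fibroblast growth factor homologous factors, intracellular proteins that bind the tail of the alpha subunit and tune its inactivation, were lower (median -0.87). Fgf11 averaged 3.46 CPM in TAC and 12.7 CPM in Sham (log2 fold change -1.88, SE 0.15, edgeR adjusted p = 2.3e-06). Fgf13 averaged 27.4 CPM in TAC and 65.4 CPM in Sham (-1.25, SE 0.14, edgeR adjusted p = 2.1e-05). The other two were lower by less, with -0.49 for Fgf12 and -0.40 for Fgf14, and neither passed with scaling by library size alone (edgeR adjusted p = 0.25 and 0.85). Fgf14 lost its call in 9 of 21 alternatives, so that 3 of the 4 were then lower at most. Among them were the replicate block (edgeR adjusted p = 0.057), no filter on low counts (0.064), and the removal of Sham replicate 1 (0.065) or 5 (0.060) or of TAC replicate 1 (0.073), 3 (0.067) or 5 (0.075).

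Of 8 tested scaffold and anchor genes 2 were higher and 3 lower (median -0.10). Ank3, which encodes the ankyrin that tethers sodium channels to the spectrin skeleton, had a log2 fold change of -0.51 (SE 0.07, edgeR adjusted p = 7.9e-05). Of 10 genes of kinases, calmodulins, ubiquitin ligases and similar modifiers 4 were higher and 4 lower (median 0.03). Camk2d, the main cardiac isoform of a calcium-dependent kinase that phosphorylates cardiac sodium channels, had a log2 fold change of -0.54 (SE 0.07, edgeR adjusted p = 3.9e-05). These splits depend on the fit and on the scaling. Of 21 alternatives, Cav3 (lower) lost its call in 12 and Sntb1 (higher) in 6. Calm3 and Fyn (both higher) lost theirs in 9 and 8. The other called genes of these 2 lists lost theirs in 1 at most. With library size only, 4 scaffold genes and 6 modifier genes were higher and none lower, Ank3 (-0.15) and Camk2d (-0.19) no longer passed (edgeR adjusted p = 0.12 and 0.066), and 2 of the 4 homologous factor genes, Fgf11 and Fgf13, stayed lower. Over the 3 lists 10 genes were then higher and 2 lower, and Dlg1, Gpd1l and Calm2, not called with TMM scaling, changed sign.

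**Figure D5:**
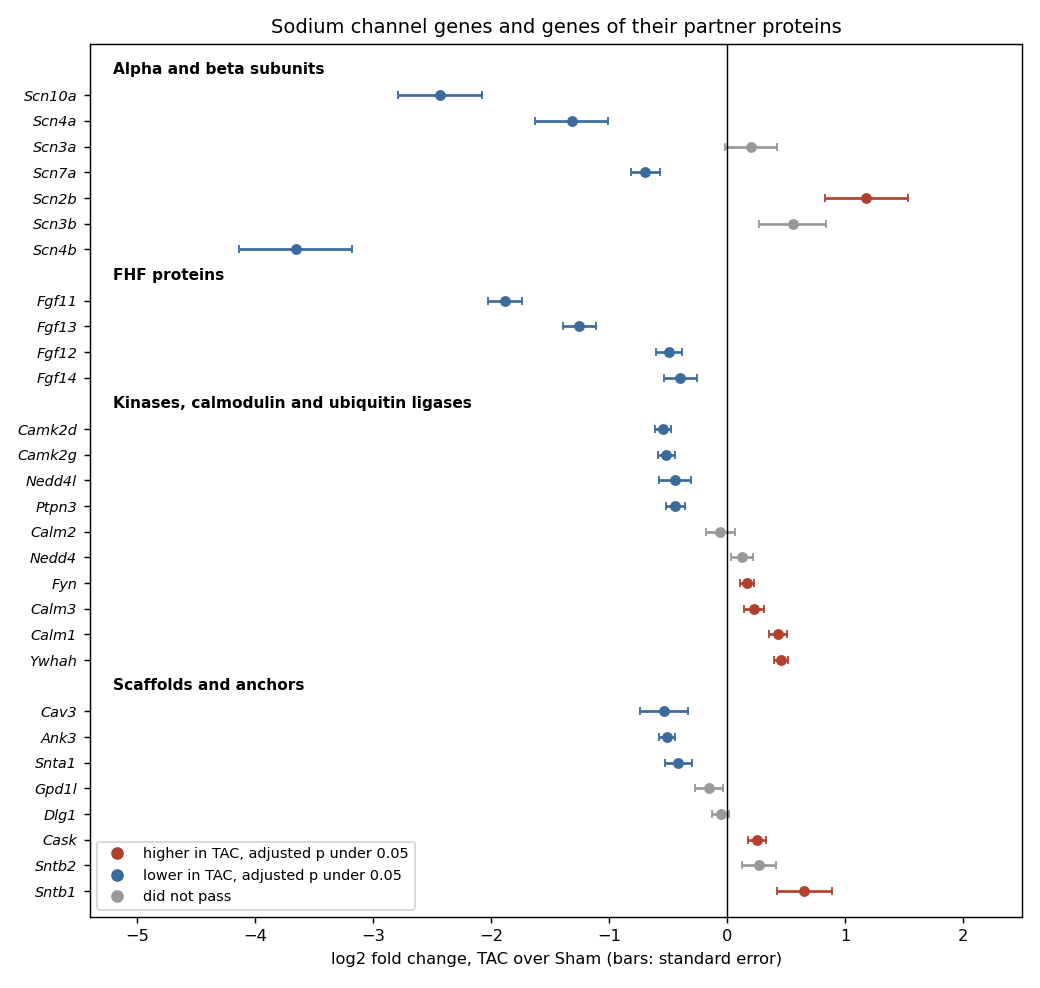
Log2 fold change (TAC over Sham) with its standard error for the 7 sodium channel genes and the 22 tested partner genes, coloured by the edgeR call with TMM scaling. Scn4b (-3.65) and Scn10a (-2.43) lie to the left of every partner gene, the lowest of which is Fgf11 (-1.88), and Scn2b (1.18) lies to the right of every partner gene.

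Bulk RNA cannot tell fewer cells of a type from less RNA per cell, and several cell types of the atrium can hold these transcripts. The marker counts below stand beside 28.9% of all tested genes called higher and 27.9% called lower. Cardiomyocyte markers were abundant in all 10 libraries, led by Myh6. Of 10 cardiomyocyte markers 9 were lower and 1 higher in TAC, and their summed level was 45552 to 59441 CPM in TAC libraries and 85911 to 101852 CPM in Sham libraries. Schwann cell and glial markers, relevant to Scn7a, were lower for 7 of 9 tested of 12 listed, with sums of 43.9 to 60.3 CPM in TAC and 81.3 to 99.75 CPM in Sham, and Mbp was the most abundant. The part of either shift in the lower Scn7a, Scn10a and Scn4b was not tested.

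Neuron markers, relevant to Scn10a and Scn3a, were mostly too low to test (5 of 14). Of these 3 were higher and 1 lower, with sums of 36.3 to 67.7 CPM in TAC and 17.0 to 22.2 CPM in Sham, most of it Uchl1 in TAC. The defining genes of parasympathetic neurons were at or near 0, with no Chat count in any library and 4 counts of Slc18a3 over the TAC libraries and 0 over the Sham libraries. The marker called lower was Dbh, which encodes an enzyme of noradrenaline synthesis in sympathetic neurons. It had 4.98 ± 2.55 CPM in TAC and 11.3 ± 1.61 CPM in Sham (SD, n = 5 each, log2 fold change -1.19, SE 0.31, edgeR adjusted p = 0.0063). Th, which encodes another enzyme of that synthesis, went the other way but was too low to test. It had 29 counts over the TAC libraries and 4 over the Sham libraries. The 3 markers called higher were Uchl1 (log2 fold change 3.71), Tubb3 (2.90) and Stmn2 (0.63). The part of neuronal RNA in the lower Scn10a was not tested. Skeletal muscle markers, relevant to Scn4a, were 2 higher and 1 lower of 5 tested of 12 listed, with sums of 59.9 to 304.3 CPM in TAC and 14.2 to 36.0 CPM in Sham, led by Tnnt3. Myod1 had no count in any library, and Tnnc2 had 0 counts over the TAC libraries and 1 over the Sham libraries. The list was thus not of one direction. Tnnt3 averaged 141.9 ± 79.7 CPM in TAC and 1.29 ± 0.611 CPM in Sham (SD, n = 5 each). Atp2a1, the calcium pump of fast skeletal muscle, averaged 2.22 ± 1.10 CPM in TAC and 11.1 ± 10.2 CPM in Sham (SD, n = 5 each). Its Sham libraries thus differed widely (log2 fold change -2.33, SE 0.54, edgeR adjusted p = 0.0034). Myf6, a myogenic regulator too low to test, had 0 counts over the TAC libraries and 23 over the Sham libraries. The part of skeletal muscle RNA in the lower Scn4a was not tested.

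Of the remaining lists, fibroblast markers were 5 higher and 2 lower of 10, with sums of 5121 to 9638.5 CPM in TAC and 4707.5 to 6556 CPM in Sham, led by Gsn. Smooth muscle and pericyte markers were 4 higher and 1 lower of 8 (720.3 to 1023 CPM in TAC, 411.8 to 536.5 CPM in Sham), led by Rgs5. Endothelial markers were 3 higher and 1 lower of 6 (858.6 to 1203 CPM in TAC, 809.8 to 1178 CPM in Sham), led by Pecam1. All 6 macrophage markers were higher (658.1 to 1120.0 CPM in TAC, 252.2 to 457.4 CPM in Sham), led by Lyz2. Adipocyte markers were 1 higher and 3 lower of 4 tested of 6 listed (170.4 to 288.1 CPM in TAC, 144.4 to 208.6 CPM in Sham), led by Fabp4. Fabp4, the 1 called higher, made up most of the summed level (means of 226.8 CPM in TAC and 153.6 CPM in Sham). The 3 called lower were Adipoq (means of 1.21 CPM in TAC and 6.22 CPM in Sham), Plin1 (0.476 and 7.25 CPM) and Cidec (0.743 and 8.16 CPM). The adipocyte sum thus does not show the direction of those 3. The part of these remaining lists in the higher Scn2b was not tested.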

How the data were processed

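Bulk RNA sequencing of 5 TAC and 5 Sham left atria was used, grouped by sample title. The deposited values are raw counts per gene symbol, 1 table per library, made by the authors without normalization. STAR, bcl2fastq and the mm10 build are listed without versions in the submitters' processing notes, while the sources used here do not give the counter, its strand setting or the annotation. The labels name a Nugen Trio kit and the design text a TruSeq kit. No exonic base of the 7 genes is shared with another gene of the GENCODE annotation of GRCm38 (mm10), so strand setting bears little on them. Each table ends with 5 tallies that name no gene (25.9% to 29.1% of reads), which were left out of library sizes and tests.

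Counts were tested with edgeR 4.0.16 in R 4.3.3 (quasi-likelihood F test, robust, TMM factors, filterByExpr defaults, group as the only term), with Benjamini-Hochberg adjustment over all tested genes and a threshold of 0.05. The standard error was the log2 fold change divided by the square root of F. Library totals limit the precision of genes with few counts, such as Scn2b (SE 0.35), and the spread between libraries bears on it too. Among the 7 genes the SE was largest for Scn4b (0.48) and next for Scn10a (0.36), which had more counts than Scn2b. Levels per kilobase used the union of annotated exons. One-value-per-library measures were tested by exact two-sided permutation, and member ratios used a pseudocount of 0.5. The prior count for log2 CPM profiles was 2. The procedure was checked on simulated data. Alternatives were library size, DESeq2 size factors or upper-quartile factors for scaling, no filter or a stricter one (CPM of at least 1 in 5 libraries), DESeq2 1.42.0, limma 3.58.1 voom, a replicate block, non-robust estimation, each library left out, and Sham replicates 1 and 2 left out. Removal of mitochondrial genes and the ratio tests were added after seeing the data. Named genes were the 7 members, partner genes called with an absolute log2 fold change of at least 1 (or, in a list with none, the one with the smallest adjusted p), the most abundant marker of each list and those at 0, and the 2 nearest profiles per member. Fgf12, Fgf14, Dlg1, Gpd1l, Calm2, Slc18a3, Tnnc2, Atp2a1, Myf6, Dbh, Th, Tubb3 and Stmn2 were named after their values were seen. So were Cav3, Sntb1, Calm3, Fyn, Adipoq, Plin1 and Cidec. The members and lists were chosen with earlier results of these data known. No pair of replicate libraries was identical. Figures were drawn with matplotlib 3.10.9 from tables made with pandas 2.3.3, numpy 2.4.6 and Python 3.11.15.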

Additional observations from a re-analysis of the deposited data

Results flagged for a closer look

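In a check of 20 groups of 5 libraries for a sample far from the rest (gap to the nearest value over the group's range above 0.71, which chance passes in about 1 of 20 groups), 3 groups held such a sample. Sham replicate 3 had the highest Scn4a, at 67.7 CPM, and the highest Scn4b, at 54.4 CPM, among the Sham libraries. Its summed skeletal muscle markers were also the highest of that group (36.0 CPM, against 14.2 to 27.9 CPM in the other Sham libraries). Every TAC library had a higher sum (59.9 to 304.3 CPM). This list was singled out after its values were seen, and its part in these levels was not tested. TAC replicate 4 had the lowest Scn3a among the TAC libraries, at 0.646 CPM, which rests on 22 counts.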

How the results depend on the processing

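In all 21 alternative fits 4 of the 7 genes (Scn10a, Scn4a, Scn7a and Scn4b) were lower in TAC and Scn2b was higher. The log2 fold change ranged from -3.92 to -3.22 for Scn4b, from -2.60 to -2.09 for Scn10a, from -1.53 to -0.90 for Scn4a, from -0.78 to -0.33 for Scn7a and from 0.95 to 1.54 for Scn2b. The number of genes called higher was 3 with scaling by library size alone and 2 without Sham replicates 1 and 2, where Scn3b passed. Scaling by library size alone gave 7741 genes higher and 1929 lower over all tested genes, and 10 partner genes higher and 2 lower. It reversed the sign of 3 partner genes, Dlg1 (0.31, edgeR adjusted p = 0.0064), Gpd1l (0.20) and Calm2 (0.30), and Calm2, which did not pass with TMM scaling, ranged from -0.13 to 0.028 with single libraries left out, the upper value without Sham replicate 5. Without Sham replicates 1 and 2, 3 partner genes were higher, and leaving out single libraries gave 3 to 6, with 3 without Sham replicate 5. Apart from scaling by library size alone, which raised most genes by a common shift, the cause was not tested. The fall of the Scn4b share ranged from -60.4 to -54.1 points with single libraries left out, and 15 to 17 of 21 pairs differed. Libraries with the same replicate number had nearly uncorrelated deviations from their group means (correlations from -0.04 to 0.08). This cannot exclude that libraries were matched in some way. With the replicate block 1 gene was higher and 4 lower, the same calls, and Scn2b had an edgeR adjusted p of 0.035. Depth limits Scn2b, Scn3a and Scn3b, which had as few as 9, 12 and 19 counts in a library.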

Other observations

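Within the TAC group, replicates 1 and 5 had the highest Scn4b (3.15 and 3.64 CPM, against 1.12 to 1.39 CPM in the other TAC libraries) and the highest Scn10a (4.05 and 4.33 CPM). The same libraries had the lowest Scn2b (1.11 and 1.055 CPM). Their summed macrophage markers were the lowest of the TAC group (658.1 and 683.2 CPM, against 886.4 to 1120.0 CPM in the other TAC libraries), and their summed cardiomyocyte markers were 59441 and 45552 CPM, the highest and the lowest of that group. These libraries were singled out after their values were seen, and the part of either marker list in the pattern was not tested.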
